A study of Rattus norvegicus with 48 samples.

Results

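The KRT-19-positive preneoplastic nodules sampled after 4 d of triiodothyronine (T3) did not all look alike. Gstp1, the placental glutathione transferase that marks preneoplastic rat hepatocytes, was still high on 4 of the 10 arrays of this group and low on the other 6. The 10 arrays were ranked by the Gstp1 probe ILMN_1376479 in the deposited normalised value table, and the 4 highest (title numbers 1, 3, 8 and 9, the retaining arrays) were set beside the 6 lowest (2, 4, 5, 6, 7 and 10, the low arrays). They are 10 of 48 arrays in the series. Gstp1 chose the sets and is no finding here. Because the sets were formed from measured levels, every comparison of the 4 with the 6 is a description and has no p-value.

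RNA was measured on Illumina 1-colour bead arrays in 5 groups from male Fischer rats: 8 control livers, 10 KRT-19-negative preneoplastic nodules, 10 KRT-19-positive nodules without T3, and 10 arrays each of KRT-19-positive nodules taken at 2 d and at 4 d of T3. Every array is one time point, so no nodule was followed from before to after T3. The labels state neither a dose of T3 nor how the nodules were produced. Nor do they state whether different arrays are different animals, and the p-values therefore reflect only array-to-array spread, possibly of technical origin. The probes detected on a T3 4 d array numbered 9793 to 10379 on the retaining arrays and 8838 to 9804 on the low arrays, and the number of arrays limits the precision. Pairs of retaining arrays correlated over all features at 0.980 to 0.989, pairs of low arrays at 0.980 to 0.990, and pairs across the sets at 0.957 to 0.986. The hepatocyte products Alb (mean log2 level 14.61 on the retaining and 14.69 on the low arrays) and Ttr (14.76 and 14.97) were near the top of the scale on both.

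T3, the active thyroid hormone, acts through nuclear receptors that bind DNA beside their target genes, and in liver it raises enzymes of lipid and energy metabolism. Preneoplastic nodules are foci of altered hepatocytes that switch on detoxifying enzymes, many of them controlled by the stress-responsive transcription factor NRF2, and lose part of the adult hepatocyte programme. In rats that programme includes cytochrome P450 enzymes and carriers that differ between the sexes under the pattern of growth hormone release.

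In the value table used for ranking, Gstp1 had intensities of 23292, 17970, 9510 and 8044 on arrays 1, 3, 9 and 8. The low arrays followed with 1613 on array 7, 1464 on array 2, 1280 on array 4, 1073 on array 5, 928 on array 10 and 765 on array 6. The boundary therefore ran between array 8 at 8044 and array 7 at 1613. After background correction and normalisation the log2 levels were 12.95 to 14.50 on the retaining arrays and 9.36 to 10.56 on the low arrays, against 6.93 to 8.23 in control liver and 14.35 to 15.27 in untreated KRT-19-positive nodules. Array 1 reached the lower end of the untreated range and the other 3 retaining arrays lay below it. Even the lowest T3 4 d array was above every control array, so the name "full loss" does not describe the 6: Gstp1 was low on them and not at the control level. A second probe of the gene (ILMN_1366294) put the same 4 arrays highest, and the third (ILMN_1530215) was not above background on any of the 10.

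**Figure D1:**
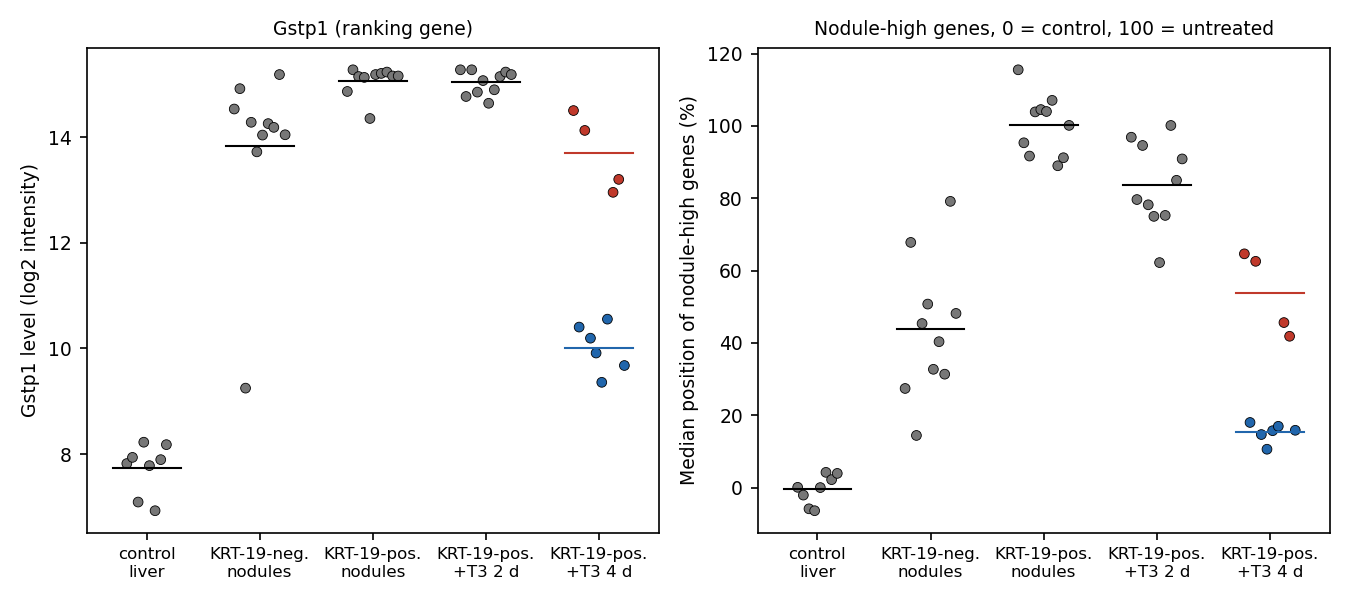
Left, log2 level of Gstp1 on each of the 48 arrays by group; right, for the same arrays, the median position of nodule-high genes on a scale where 0% is the control mean and 100% the mean of untreated KRT-19-positive nodules. Points are arrays, horizontal lines are means, red marks the 4 retaining and blue the 6 low T3 4 d arrays; on the right the red points lie at 41.8% to 64.6% and the blue points at 10.6% to 18.0%.

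The following promoters belong to 3 glutathione enzymes that differed between the sets, Gstp1 by choice and the glutathione peroxidase Gpx2 and the glutathione transferase Gsta3 as measured. They were picked among promoters that hold the motif described below, so its presence in all 3 is no result. The glutathione transferase Gstm1 also differed between the sets and is not printed. Each sequence runs 5′ to 3′ on the coding strand of the RefSeq annotation of build GRCr8, from 250 bases before to 50 bases after the start of the gene. Capitals mark the match to TGACNNNGC, the core of the antioxidant response element that NRF2 binds, searched on both strands with N as any base. The Gstp1 promoter lies at chr1:210769656-210769955 (minus strand), that of Gpx2 at chr6:101229984-101230283 (minus strand) and that of Gsta3 at chr9:31154739-31155038 (plus strand).
Gstp1: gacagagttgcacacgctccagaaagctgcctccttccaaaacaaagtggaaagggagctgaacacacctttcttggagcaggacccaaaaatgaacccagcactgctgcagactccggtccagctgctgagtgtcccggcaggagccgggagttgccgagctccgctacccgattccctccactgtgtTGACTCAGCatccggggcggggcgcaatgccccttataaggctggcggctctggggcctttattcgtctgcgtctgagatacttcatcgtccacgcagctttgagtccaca
Gpx2: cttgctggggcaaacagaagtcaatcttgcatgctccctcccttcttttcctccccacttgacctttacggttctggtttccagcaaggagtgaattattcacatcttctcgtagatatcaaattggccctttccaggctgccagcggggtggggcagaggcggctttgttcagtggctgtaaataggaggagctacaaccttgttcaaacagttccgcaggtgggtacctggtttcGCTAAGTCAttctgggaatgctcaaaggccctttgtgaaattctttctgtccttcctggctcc
Gsta3: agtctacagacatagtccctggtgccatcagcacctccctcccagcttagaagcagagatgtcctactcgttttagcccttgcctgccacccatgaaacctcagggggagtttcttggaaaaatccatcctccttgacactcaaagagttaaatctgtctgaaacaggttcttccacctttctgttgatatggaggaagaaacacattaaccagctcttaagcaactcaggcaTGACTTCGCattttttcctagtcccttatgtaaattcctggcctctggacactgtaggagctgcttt
In Gpx2 the match is on the opposite strand and reads as its reverse complement. Of the 130 named nodule-high genes that were higher on the retaining arrays, 100 had a promoter in the RefSeq table, and 19 of these (19.0%) held the motif, against 14.7% of 6863 measured genes and 12.1% of all 33469 promoters. Among the nodule-low genes that were lower on the retaining arrays, 5 of 38 (13.2%) held it. These shares are descriptions of the printed window, and a match is not evidence of binding.

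To separate nodule genes from hormone targets, each of the 11557 features other than Gstp1 was put in a class on the 38 arrays of the other groups, so that no T3 4 d array took part. A feature was nodule-high or nodule-low where untreated KRT-19-positive nodules differed from control liver by at least 1 log2 at a limma adjusted p under 0.05. It was hormone-up or hormone-down where it was not in those classes and T3 2 d nodules differed from untreated ones by the same rule. Among all 11558 features the first rule called 6.63% higher and 5.03% lower in the nodules, and the second 1.04% higher and 1.29% lower after 2 d of T3. With Gstp1 left out and nodule genes taken first, the classes held 765 nodule-high, 581 nodule-low, 67 hormone-up, 69 hormone-down and 10075 other features. A feature was called apart where the levels of the 4 and the 6 did not overlap and their means differed by at least 1 log2.

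Features apart by the rule with 1 log2 lay mostly in genes of the untreated nodule. Of all 11557 features, 175 were apart and higher on the retaining arrays (1.51%), and 71 were apart and lower (0.614%). Nodule-high features made up 145 of the 175 (82.9%), and 145 of 765 is 19.0% of the class, while no nodule-high feature was apart and lower. Nodule-low features made up 57 of the 71 (80.3%), which is 9.81% of the class, and 3 nodule-low features went the other way. The hormone classes held 4 of the features that were apart, 3 of them hormone-up (Akr1b7, Tfrc and an unnamed probe) and 1 hormone-down (Cyp2c23), all higher on the retaining arrays. These classes leave out nodule genes that also passed the T3 2 d rule. Of nodule-high features, 9 of 50 lower at 2 d and 1 of 7 higher at 2 d were apart and higher. Of 30 nodule-low features lower at 2 d, 10 were apart and lower. Of 46 higher at 2 d, 4 were apart and lower and 1 was apart and higher. Where the 2 d rule was not passed, 135 of 708 nodule-high features were apart and higher and 43 of 505 nodule-low features apart and lower. Among other features 23 were higher (0.228%) and 14 were lower (0.139%). Without the size rule, 738 features were higher without overlap, 381 of them other features (3.78% of that class) and 335 nodule-high (43.8%). Of 581 features lower without overlap, 347 were other features (3.44%) and 205 nodule-low (35.3%). Counted so, most features that separated lay outside the nodule classes, while the shares were larger within them. Median differences of the 4 minus the 6 were 0.53 log2 for nodule-high, -0.35 for nodule-low, -0.17 for hormone-up, -0.15 for hormone-down and -0.02 for other features. Without quantile normalisation the median of all features moved to 0.13 and those of the hormone classes turned positive, while nodule-high and nodule-low kept their signs.

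**Figure D2:**
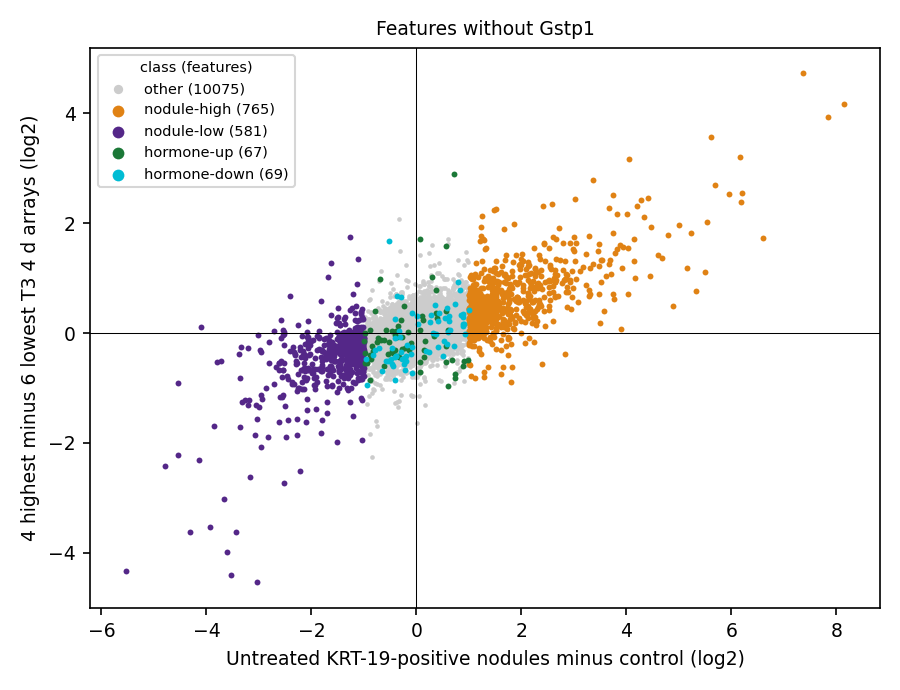
Each point is one of 11557 features: the x axis is the log2 difference between untreated KRT-19-positive nodules and control liver, the y axis the difference between the means of the 4 retaining and the 6 low T3 4 d arrays (log2), and colours are the classes. The change of colour at -1 and 1 log2 on the x axis comes from the class definition, and Gstp1 is not drawn; orange nodule-high points lie mostly above 0 (median 0.53) and violet nodule-low points mostly below it (median -0.35).

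Both pairs of retaining arrays contributed, and they did so to different degrees. Arrays 1 and 3 against arrays 2, 4 and 5 gave 340 features higher and 187 lower, and arrays 8 and 9 against arrays 6, 7 and 10 gave 121 and 29. Nodule-high features were 248 of the 340 and 90 of the 121, and nodule-low features were 116 of the 187 and 19 of the 29. Leaving out any 1 of the 10 arrays gave 145 to 236 features higher and 54 to 101 lower. The deposited values, from which no background was subtracted, gave 70 higher and 36 lower, and without quantile normalisation there were 235 and 14.

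The distance from the control state was measured as a position, the median over the genes of a class of an array's level on a scale where control liver is 0% and untreated KRT-19-positive nodules are 100%. For nodule-high genes the positions of arrays 1, 3, 8 and 9 were 64.6%, 62.6%, 45.6% and 41.8%, with a mean of 53.7% ± 11.6 (SD, n = 4). Those of the low arrays ran from 10.6% through a median of 15.8% to 18.0%, with a mean of 15.3% ± 2.57 (SD, n = 6). The sets did not overlap, and all 4 retaining arrays were below the mean of the T3 2 d arrays, 83.8% ± 11.9 (SD, n = 10). For nodule-low genes the retaining arrays lay at 68.2%, 66.4%, 46.8% and 43.3% (mean 56.2% ± 13.0, SD, n = 4) and the low arrays between 27.9% and 30.3% (mean 29.1% ± 0.94, SD, n = 6). On the low arrays, nodule-low genes thus stood farther from control than nodule-high genes. The 75 nodule-high genes with an untreated excess of over 3 log2 had a median position of 59.1% on the retaining and 20.0% on the low arrays, close to the values of the whole class. The 30 nodule-low genes with a deficit of over 3 log2 had a median of 92.2% on the retaining arrays, where that of all 581 nodule-low genes was 58.1%, and 30.0% on the low arrays, beside 28.6%.

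The median positions of the hormone classes overlapped between the sets. On a scale where untreated KRT-19-positive nodules are 0% and T3 2 d nodules 100%, hormone-up genes stood at 106% ± 8.64 (SD, n = 4) on the retaining and 109% ± 4.09 (SD, n = 6) on the low arrays. Their ranges, 97% to 117% and 104% to 115%, overlapped. Hormone-down genes stood at 87.3% ± 5.40 (SD, n = 4) and 81.8% ± 15.3 (SD, n = 6), and the lowest value, 54.4%, belonged to array 7, one of the low arrays. Without quantile normalisation the hormone-up positions rose to 160% and 148%. Single features did separate: 17 of 67 hormone-up features (25.4%) were lower on the retaining arrays without overlap, beside 5.03% of all features, and 6 (8.96%) were higher without overlap, beside 6.39%. By the stricter rule with 1 log2, 3 of 67 (4.48%) were apart and higher, beside 1.51% of all features. In the hormone-down class 8 of 69 (11.6%) were lower without overlap, beside 5.03% of all features. The 5 (7.25%) that were higher without overlap are near the share of 6.39% over all features.

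**Figure D3:**
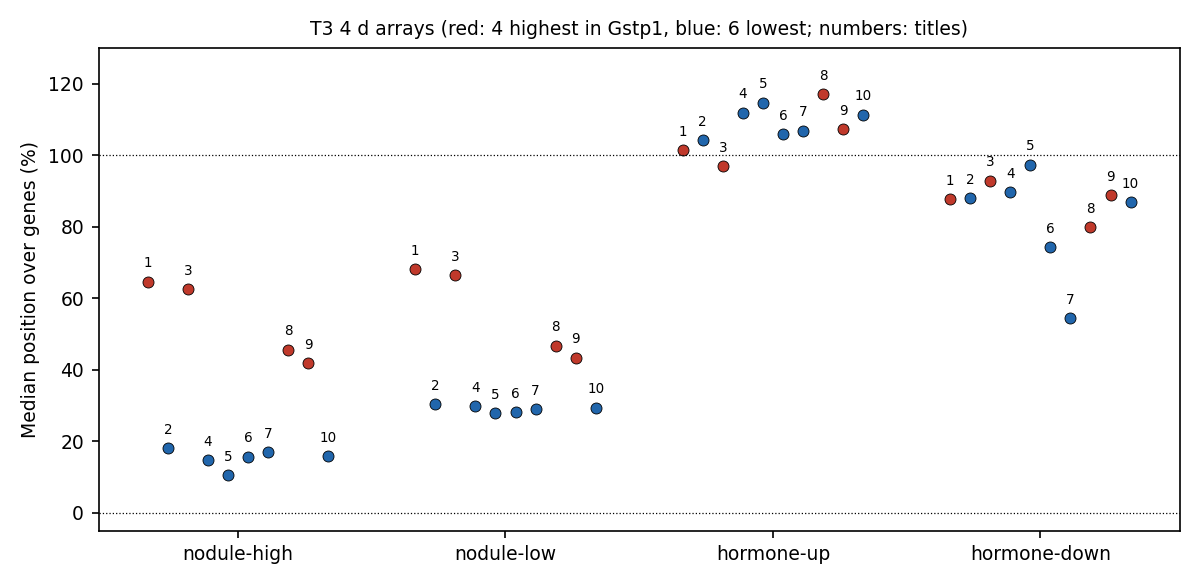
Median position of each T3 4 d array (numbers are title numbers) for the 4 gene classes, in percent; 0% and 100% are control and untreated KRT-19-positive nodules for the nodule classes, and untreated and T3 2 d nodules for the hormone classes. The red retaining arrays separate from the blue low arrays in both nodule classes (41.8% to 64.6% against 10.6% to 18.0% for nodule-high) and mix with them in both hormone classes.

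The group as a whole provides the tests that the ranking does not touch. Against untreated KRT-19-positive nodules, T3 4 d nodules were higher in 3130 of 11558 features (27.1%) and lower in 3075 (26.6%) at a limma adjusted p under 0.05. Against control liver they were higher in 2505 (21.7%) and lower in 2352 (20.3%). Without quantile normalisation these counts were 1292 and 4634 against untreated nodules and 1872 and 1123 against control, so the share of calls that were higher moved from 50.4% to 21.8% and from 51.6% to 62.5%. The median of all features then lay 0.24 log2 lower in T3 4 d than in untreated nodules.

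Among the nodule-high genes with the widest gaps was the neurofilament light chain Nefl. Its log2 levels were 10.28, 9.88, 9.20 and 8.38 on arrays 1, 3, 8 and 9 and 4.43 to 5.10 (median 4.61) on the low arrays, where the probe was not detected on any. The retaining mean was at least 16.5-fold above the lowest level that could be detected on the low arrays. The antimicrobial peptide Defb1, likewise not detected on any low array, lay at 10.07, 9.40, 8.70 and 8.65 against 4.64 to 5.33 (median 5.16), a difference of at least 14.0-fold. In control liver neither probe was above background on any array, and in untreated KRT-19-positive nodules the means were 11.96 and 12.94. Both genes were thus still measured on every retaining array and at the control level on the low arrays.

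The aldo-keto reductase Akr1b8, which reduces reactive aldehydes, had levels of 12.27, 12.05, 10.61 and 10.96 on arrays 1, 3, 8 and 9 and of 6.48 to 8.49 (median 7.45) on the low arrays, a 15.2-fold difference of means. The conjugate exporter Abcc3 lay at 11.03, 10.92, 10.09 and 10.02 against 6.53 to 7.50 (median 6.82), an 11.9-fold difference. On the log2 scale, as a share of the untreated excess over control, 77.6% of that of Akr1b8 and 75% of that of Abcc3 remained on the retaining arrays, and 27.5% and 11.3% on the low arrays. As intensities the retaining means were 29.7% and 37.9% of the untreated means. The drug exporter Abcb1b averaged 11.06 ± 0.76 (SD, n = 4) against 8.37 ± 0.33 (SD, n = 6), and the calmodulin-binding peptide Pcp4 9.67 ± 0.49 against 7.12 ± 0.62. Arrays 1 and 3 exceeded arrays 8 and 9 in each of these 6 genes.

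The glutathione peroxidase Gpx2, whose promoter is printed above, had levels of 10.48, 10.37, 9.30 and 9.36 on arrays 1, 3, 8 and 9 against 7.08 to 7.71 (median 7.51) on the low arrays, 5.25-fold apart. The quinone reductase Nqo1 lay at 11.99, 12.00, 11.20 and 11.16 against 9.43 to 9.86 (median 9.64), 3.81-fold apart. For the glutathione transferase Gsta3 the levels were 11.94, 11.95, 11.20 and 11.14 against 9.58 to 10.15 (median 9.80), 3.32-fold apart. Gsta3 differed from the others in that even the low arrays stood far above the control mean of 5.20. The aflatoxin aldehyde reductase Akr7a3 averaged 11.89 ± 0.47 (SD, n = 4) and 10.07 ± 0.25 (SD, n = 6), and the glutathione transferase Gstm1 14.67 ± 0.28 and 12.98 ± 0.12.

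Of 40 measured NRF2 targets, 13 were apart and higher on the retaining arrays, beside 1.51% of all features, and none was apart and lower. All 13 are nodule-high genes, a class of which 19.0% was apart and higher. The median difference of the 40 was 0.57 log2, beside -0.01 for all features. Besides those named, Aox1, Ephx1, Gclc and Gclm, the subunits of glutamate-cysteine ligase, Ptgr1 and Ugt1a6 were among the 13. Heme oxygenase 1 (Hmox1, 0.07 log2) and the oxidative stress-induced growth inhibitor Osgin1 (0.03) had overlapping sets and differences near 0, and the cystine carrier Slc7a11 was not detected on any of the 10 arrays. Malic enzyme Me1, which is an NRF2 target and a T3 target, went against the list at -0.50. In the whole T3 4 d group 34 of the 40 were lower than in untreated nodules, 1 was higher and 5 did not pass. Of all features, 26.6% were lower and 27.1% higher.

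Of 24 measured preneoplastic markers, 13 were apart and higher on the retaining arrays, beside 1.51% of all features, and none was apart and lower. The median difference was 1.29 log2. All 13 are nodule-high genes, a class of which 19.0% was apart and higher. Nefl, Defb1 and Pcp4 are among the 13, and the list was drawn up with earlier results of these data known. Abcc3, Akr1b8, Akr7a3, Ephx1, Gpx2, Gsta3 and Nqo1 are also NRF2 targets and are counted in both lists. Progenitor markers on the list did not move alike. Krt19, the keratin for which the nodules are named, had levels of 8.77, 8.37, 8.57 and 8.21 on arrays 1, 3, 8 and 9 and 7.47 to 7.94 (median 7.73) on the low arrays. The sets did not overlap, but their means differed by 0.76 log2, and all 10 arrays were below the untreated range of 11.03 to 12.73. The epithelial adhesion molecule Epcam behaved alike, at 8.96, 9.26, 8.96 and 8.85 against 8.12 to 8.73 (median 8.46), with an untreated range of 10.58 to 11.63. The surface protein Cd24 differed more widely, with means of 9.52 ± 0.38 (SD, n = 4) and 8.52 ± 0.16 (SD, n = 6) and no overlap. The stem cell marker Prom1 overlapped, at 6.68 and 6.42, and the whole T3 4 d group did not pass against untreated nodules (0.09 ± 0.23 log2, SE, limma adjusted p = 0.76). The aldehyde dehydrogenase Aldh3a1 was not detected on any T3 4 d array, although its untreated mean was 8.09. Of the untreated log2 excess over control, 37.1% of that of Krt19, 35.1% of that of Epcam and 59.2% of that of Cd24 remained on the retaining arrays, less than for Akr1b8 and Abcc3, and 22.9%, 16.6% and 35.4% on the low arrays.

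Compared with untreated nodules, Krt19 changed by -3.80 ± 0.38 log2 in the whole T3 4 d group (SE, limma adjusted p = 3.55e-12), Epcam by -2.33 ± 0.18 (adjusted p = 3.37e-16) and Aldh3a1 by -3.49 ± 0.32 (adjusted p = 1.64e-13). The retinal dehydrogenase Aldh1a1 remained high on both sets, at 14.29 ± 0.32 (SD, n = 4) and 13.57 ± 0.14 (SD, n = 6) beside 10.83 in control liver. Alpha-fetoprotein (Afp), a fetal liver protein, was lower on the retaining arrays by 0.47 log2 without overlap, against the direction of the list.

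**Figure D4:**
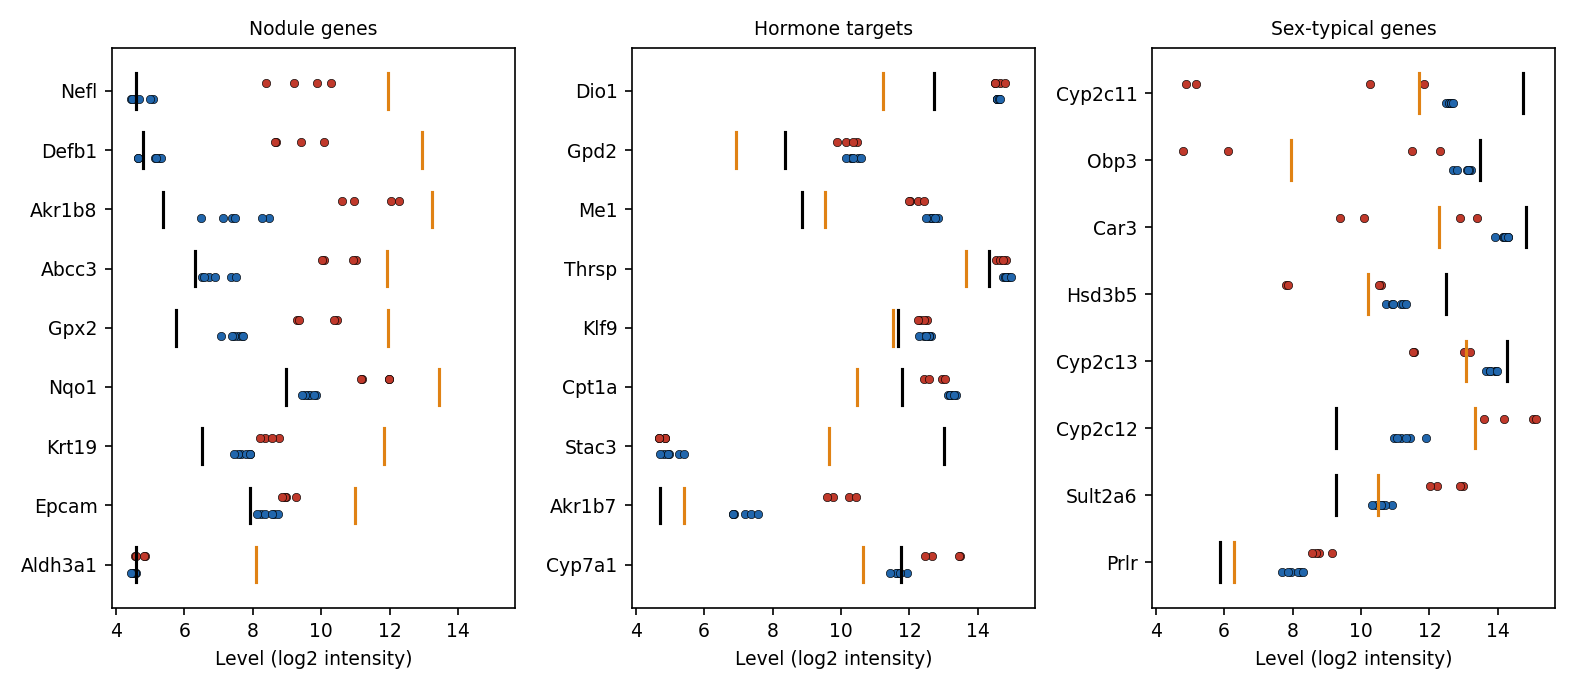
Log2 levels of selected genes on the 10 T3 4 d arrays (red, 4 retaining; blue, 6 low), with the control mean as a black and the untreated KRT-19-positive mean as an orange vertical mark. Red and blue separate widely for Nefl to Nqo1, lie close for Krt19, Epcam and Aldh3a1 and for most hormone targets, and for Cyp2c11 and Obp3 the red points of arrays 1 and 3 lie between 4.80 and 6.13.

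Of the T3 targets followed here, Dio1, Gpd2, Thrsp, Klf9, Me1 and Cpt1a differed by less than 1 log2 between the sets, Me1 and Cpt1a without overlap. The deiodinase Dio1, which converts thyroid hormones and is a standard liver marker of T3 action, lay at 14.64, 14.50, 14.78 and 14.51 on arrays 1, 3, 8 and 9 and 14.55 to 14.65 (median 14.59) on the low arrays, near the top of the scale on all 10. The mitochondrial glycerol-3-phosphate dehydrogenase Gpd2 lay at 10.14, 9.88, 10.48 and 10.36 against 10.15 to 10.59 (median 10.34). For both genes the sets overlapped. The lipogenic regulator Thrsp (mean 14.68 and 14.85) and the transcription factor Klf9 (12.37 and 12.50) also overlapped. Me1 was lower on the retaining arrays, at 12.01, 11.98, 12.24 and 12.41 against 12.49 to 12.83 (median 12.65), and the carnitine palmitoyltransferase Cpt1a, which feeds fatty acids to oxidation, at 12.42, 12.56, 12.95 and 13.03 against 13.12 to 13.37 (median 13.21). Those 2 did not overlap, with differences of -0.50 and -0.49 log2.

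Measured over the whole group, Dio1 rose over untreated nodules by 3.38 ± 0.12 log2 (SE, limma adjusted p = 3.99e-29), Gpd2 by 3.37 ± 0.16 (adjusted p = 1.53e-23) and Me1 by 2.92 ± 0.22 (adjusted p = 1.66e-16). Stac3, an adaptor protein of muscle, was detected on 1 of the 10 arrays, one of the low arrays, and the leukotriene synthase Ltc4s likewise on 1 low array. Of 33 measured T3 targets, 24 were higher in the T3 4 d group than in untreated nodules, 3 were lower and 6 did not pass. Of all features, 27.1% were higher and 26.6% lower. Between the sets 2 of the 33 were apart and higher on the retaining arrays and 1 was apart and lower, beside 1.51% and 0.614% of all features. The median difference was -0.15 log2. Without the size rule 5 of the 33 were higher and 5 lower without overlap, beside 6.39% and 5.03% of all features. Me1, Cpt1a and Fgf21 were among the lower ones, with the fatty acid elongase Elovl2, which averaged 10.14 and 11.11. The receptors Thra (6.68 and 6.67) and Thrb (8.92 and 9.16) overlapped between the sets.

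Some hormone-responsive genes did separate. Akr1b7, an aldose reductase relative, was the hormone-up gene with the widest gap, at 10.24, 10.45, 9.75 and 9.60 on arrays 1, 3, 8 and 9 and 6.83 to 7.57 (median 7.04) on the low arrays, 7.44-fold apart. The retaining arrays were also above the whole T3 2 d range of 5.20 to 8.80. The transferrin receptor Tfrc averaged 7.09 and 6.07. In the hormone-down class the epoxygenase Cyp2c23 lay at 13.02, 12.92, 12.48 and 12.38 against 10.87 to 11.13 (median 11.07), 3.18-fold apart, and so was closer to its untreated mean of 14.22 on the retaining arrays. Cyp7a1, which sets the rate at which bile acids are made, is a T3 target in the nodule-low class and went against that class, at 13.47, 13.46, 12.67 and 12.46 against 11.44 to 11.94 (median 11.65). The untreated range of Cyp7a1 was 9.35 to 11.48, so the retaining arrays exceeded both the untreated nodules and the low arrays.

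Fgf21, a fasting hormone secreted by the liver, was the widest difference among other genes. It lay at 5.12, 4.75, 5.75 and 6.75 on arrays 1, 3, 8 and 9, being detected on 2 of them, and at 7.61 to 8.16 (median 7.83) on the low arrays, which were above the untreated range of 4.89 to 5.91 and above the T3 2 d range of 5.03 to 7.05. The neuropeptide Nmu averaged 6.79 ± 0.78 (SD, n = 4) and 8.43 ± 0.17 (SD, n = 6), with 5.19 in untreated nodules and 5.18 in control. For Fgf21 and Nmu the low arrays had thus moved farther from the untreated nodules than the retaining arrays. Csad, an enzyme of taurine synthesis, went the other way at 12.23 ± 0.47 and 10.62 ± 0.23, with 12.91 in untreated nodules. The clock gene Per1 averaged 7.91 and 6.46, and the lipopolysaccharide-binding protein Lbp, an acute-phase protein in the nodule-high class, 12.14 ± 0.68 and 9.88 ± 0.11.

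The largest differences among genes that were lower on the retaining arrays came from arrays 1 and 3 and concerned male-typical liver genes. Cyp2c11, the main male-specific cytochrome P450 of rat liver, lay at 5.19 and 4.89 on arrays 1 and 3, where it was not detected, at 10.27 and 11.83 on arrays 8 and 9, and at 12.48 to 12.68 (median 12.59) on the low arrays. Its untreated range was 9.75 to 13.44 and its control range 14.34 to 15.23, and the T3 2 d arrays spread from 5.51 to 11.60. Arrays 1 and 3 lay below all 3 ranges. The urinary lipocalin Obp3 lay at 4.80, 6.13, 11.48 and 12.30 on arrays 1, 3, 8 and 9 against 12.70 to 13.20 (median 13.10), with 5.26 to 10.33 in untreated nodules. The carbonic anhydrase Car3 lay at 9.40, 10.09, 12.90 and 13.39 against 13.93 to 14.30 (median 14.18), with 10.70 to 13.36 in untreated nodules. The pheromone carrier gene Mup4l3 followed the same order, at 4.99, 7.21, 12.88 and 13.56 against 13.93 to 14.22 (median 14.06). Means of the 4 arrays hide this spread, as the SD of 3.53 for Cyp2c11 and 3.77 for Obp3 shows.

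Female-typical genes moved in the other direction. Cyp2c12, the female-specific relative of Cyp2c11, lay at 15.03, 15.13, 13.58 and 14.17 on arrays 1, 3, 8 and 9 and 10.97 to 11.89 (median 11.24) on the low arrays. Arrays 1, 3 and 9 were above the untreated range of 12.96 to 13.77. The hydroxysteroid sulfotransferase Sult2a6 lay at 12.99, 12.89, 12.21 and 12.03 against 10.31 to 10.90 (median 10.60), and all 4 retaining arrays were above its untreated range of 9.78 to 11.08. Lists of male-typical and female-typical genes were drawn up after these values were seen and carry no test. Of 9 measured male-typical genes, 7 were apart and lower on the retaining arrays (median -1.52 log2), and of 4 female-typical genes 2 were apart and higher (median 1.35). Over all features the shares were 0.614% and 1.51%. Cyp2c11, Obp3, Car3 and Mup4l3 are nodule-low genes, and Cyp2c12 and Sult2a6 nodule-high genes, so they are also counted in those classes. Of nodule-low features 9.81% were apart and lower, and of nodule-high features 19.0% were apart and higher.

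The mean log2 level over the 9 male-typical genes was 8.84 and 9.00 on arrays 1 and 3, 11.35 and 11.69 on arrays 8 and 9, and 12.25 to 12.41 on the low arrays, against 9.55 to 11.93 in untreated nodules and 8.19 to 11.28 after 2 d of T3. The mean over the 4 female-typical genes was 10.84 and 10.87 on arrays 1 and 3, 10.62 and 10.25 on arrays 8 and 9, and 8.81 to 9.40 on the low arrays. On arrays 1 and 3 together, 5 of 9 male-typical genes lay below every untreated array, while 15% of all 11558 features did, and 3 of 4 female-typical genes lay above every untreated array, while 16% of all features did. On arrays 8 and 9, 1 of the 9 male-typical genes lay below every untreated array (17.1% of all features) and 3 lay above (17.3%), as did 2 of the 4 female-typical genes. All samples are labelled male, none of 7 sex chromosome genes looked for had a probe under its symbol, and probes of closely related P450 genes may bind each other's RNA, which was not tested.

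Adult hepatocyte genes as a list separated only in part. Of 49 measured genes of mature hepatocyte function, 9 were apart and lower on the retaining arrays, 4 of which (Cyp2c11, Cyp2c13, Cyp3a18 and Obp3) are also on the male-typical list, and 2 were apart and higher (Cyp7a1 and Cyp2c23), with a median difference of -0.17 log2. Over all features, 0.614% were apart and lower and 1.51% apart and higher. Aox3, Cdh17 and Obp3, markers followed throughout, are among the 9, and the list was drawn up with earlier results of these data known. The aldehyde oxidase Aox3 averaged 7.14 ± 1.42 (SD, n = 4) and 9.57 ± 0.08 (SD, n = 6), and the liver-intestine cadherin Cdh17 9.53 ± 1.46 and 11.85 ± 0.12. The urea cycle enzymes Cps1 (0.13), Otc (-0.13), Arg1 (0.13) and Ass1 (0.01) had differences near 0, and so had the hepatocyte regulator Hnf4a (0.21), whose sets overlapped. Of 33 fatty acid oxidation genes, none was apart in either direction, 30 had a lower mean on the retaining arrays (median -0.26 log2), beside 52.0% of all features, and 10 of them did so without overlap, beside 5.03% of all features. Of 37 genes of the respiratory chain and ATP synthase, none was apart and 35 had a lower mean (median -0.18), beside 52.0% of all features. Among these, 7 did so without overlap, beside 5.03% of all features. For the cell cycle list the figures were 36 of 42 lower (median -0.26) and the 3 lower and 2 higher members without overlap are near the shares over all features. Its mean log2 level overlapped, at 6.657 to 7.365 on the retaining and 7.144 to 7.273 on the low arrays. The pairs of retaining arrays differed here. On arrays 1 and 3 together, 8 of the 42 lay below every untreated array and 2 above (15% and 16% of all features). On arrays 8 and 9, 2 lay below and 12 above (17.1% and 17.3%). Cholesterol synthesis genes lay slightly higher on the retaining arrays (median 0.16), with Idi1, Sqle and Msmo1 higher by 0.85, 0.85 and 0.73 log2 without overlap.

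Markers of other cell types moved with the sets as follows. Of 15 measured markers of stellate cells and fibroblasts, 4 were apart and higher on the retaining arrays, beside 1.51% of all features: the matrix enzyme Lox (7.63 and 5.65), the matrix protein Mgp (11.30 and 9.85), and the collagens Col1a2 (11.95 and 10.72) and Col1a1, detected on the 4 and on none of the 6. Their mean log2 level was 8.24 to 8.76 on the retaining and 7.70 to 7.91 on the low arrays, against 8.53 to 9.32 in untreated nodules and 7.29 to 7.77 in control, and their summed intensity 9474 to 15193 against 6243 to 7208. Of 11 cholangiocyte markers none was apart, and their mean level was 7.10 to 7.22 against 6.64 to 6.88. Without the size rule, 4 of these 11 were higher without overlap and none lower (median difference 0.45 log2). The same held for 10 of the 15 stellate cell and fibroblast markers, with none lower, beside 6.39% of all features higher without overlap. Of 12 macrophage markers 1 was apart, the lipid receptor Trem2 (6.39 and 5.08, not detected on any low array), and the mean levels overlapped for macrophages (8.59 to 8.73 and 8.47 to 8.65), endothelium (7.59 to 7.82 and 7.56 to 7.87), neutrophils (5.85 to 5.97 and 5.46 to 6.37), red blood cells (8.56 to 8.65 and 8.58 to 8.76) and lymphocytes (5.86 to 5.96 and 5.54 to 5.87). Lox, Mgp, Col1a1, Col1a2 and Trem2 are themselves nodule-high genes. Their part in the differences between the sets was not tested. In bulk samples of this kind, fewer nodule cells and less RNA of a gene per cell cannot be told apart.

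Arrays that took no part in the ranking show how far the same features went with Gstp1 elsewhere. In the 10 T3 2 d arrays Gstp1 ranged from 14.64 to 15.27, with 4 arrays within 0.1 log2 of the highest level on any array, so the range was narrow. A slope of each feature on Gstp1 was fitted with limma, and 47 of 11557 features (0.407%) had a positive and 75 (0.649%) a negative slope at an adjusted p under 0.05. Among the 175 features higher on the retaining arrays, 16 were called positive and 2 negative, and 79.4% had a positive slope beside 52.3% of all features. At an unadjusted p under 0.05, 78 of the 175 were positive (44.6%, beside 6.36% of all features) and 4 negative. Among the 71 lower features 15 were called negative and none positive (45 against none at an unadjusted p under 0.05, or 63.4% beside 6.22% of all features), and 12.7% had a positive slope. Nodule-high features make up 145 of the 175 and nodule-low features 57 of the 71. The slopes of these classes as a whole were not compared. Defb1 (slope 3.32 ± 0.47 log2 per log2 of Gstp1, SE, limma adjusted p = 0.0077), Akr1b8 (2.47 ± 0.38, adjusted p = 0.0119), Nqo1 (1.87 ± 0.29, adjusted p = 0.0119) and Gpx2 (1.69 ± 0.30, adjusted p = 0.0203) were among the positive calls, and Car3 (-3.95 ± 0.84, adjusted p = 0.0402), Cyp2c13 (-3.05 ± 0.60, adjusted p = 0.0303) and Mup4l3 (-5.91 ± 1.26, adjusted p = 0.0402) among the negative ones. Without the 2 arrays farthest from the median of Gstp1, 8 positive and 23 negative slopes remained called in all, 6 and 6 of them in the respective sets.

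In the 10 KRT-19-negative nodule arrays, 23 slopes (0.199%) were called positive and 2 (0.0173%) negative, and 15 of the 23 belonged to the 175 features. Abcc3, Gsta3 and Akr7a3 were among them. These calls rested on array 3 of that group, whose Gstp1 level was 9.25 while the other 9 lay between 13.72 and 15.18. Without it limma called 0 features in either direction, with 329 positive and 289 negative slopes at an unadjusted p under 0.05 over all features and 40 and 0 among the 175, and 84.6% of the 175 and 28.2% of the 71 had a positive slope beside 47.8% of all features.

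**Figure D5:**
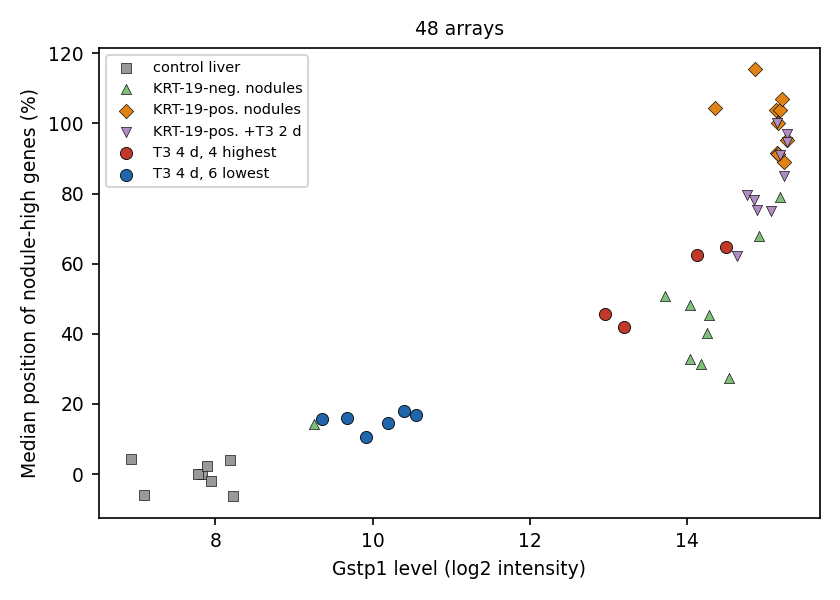
Log2 level of Gstp1 (x axis) against the median position of nodule-high genes (y axis, percent of the untreated excess over control) on all 48 arrays, with a symbol and colour for each group. The 4 retaining T3 4 d arrays (red, 41.8% to 64.6%) lie above the 6 low ones (blue, 10.6% to 18.0%). Of the 4, arrays 1 and 3 reach the lower end of the T3 2 d arrays (62.2% to 100.1%), and arrays 8 and 9 lie below it. KRT-19-negative nodules spread from 14.4% to 79.1%.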

How the data were processed

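RNA of 48 samples was measured on Illumina 1-colour arrays. Per the file headers, the table the authors deposited before normalisation gives each probe's intensity and detection p-value on every array. The submitters' processing notes name BeadStudio 3.0.19.0. A second deposited table, used for the ranking, holds the authors' normalised intensity values, and its order of probes matched that of the first table on every array. Which build and annotation the probes were designed on is not given in the sources used here.

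Intensities were background-corrected and quantile normalised on the log2 scale with neqc (offset 16), from limma 3.58.1 (R 4.3.3, with the data.table package, version 1.17.8). Probes were kept where the detection p-value was below 0.05 on 8 or more arrays, and the brightest probe stood for a gene, which left 11558 features (8223 named genes, 3335 unnamed). A limma model of 5 groups with moderated variances gave whole-group tests with Benjamini-Hochberg adjustment over all features, and another gave slopes on Gstp1. Where a probe was not detected on any array of a set, folds are lower bounds against the lowest detected level. Title numbers did not pair the samples. The procedures were tested on simulated data.

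Members, classes, lists and alternatives were chosen with earlier results of these data known, and the sex-typical and sex chromosome lists after their values were seen. The rule for named genes took, per class, up to 8 named genes apart between the sets with the largest difference in each direction, up to 4 members of a list with the largest difference, members against their list, and markers followed throughout, of which Ggt1, Mki67 and Top2a had no probe under their symbols. Genes nearest to Gstp1 by correlation are not given, since the 10 arrays fall into separate clusters. Genes beyond the rule (Aox1, Ephx1, Gclc, Gclm, Ptgr1, Ugt1a6, Hmox1, Slc7a11, Osgin1, Cps1, Otc, Arg1, Ass1, Prom1 and Ttr) were named after their values were seen.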

Additional observations from a re-analysis of the deposited data

Results flagged for a closer look

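Among 134 sets of 4 or 6 T3 4 d arrays examined gene by gene, 4 had a single array far from the rest, and chance gives about 1 in 20. All 4 were among the low arrays. Tfrc was at 5.35 log2 on array 7 while the other 5 lay between 6.03 and 6.41. Per1 was at 5.06 on array 5, against 6.41 to 7.21 on the others. Pter, a phosphotriesterase relative, was at 5.85 on array 7, against 5.05 to 5.35. Akr7a3 was at 10.56 on array 2, against 9.83 to 10.07.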

How the results depend on the processing

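Depth of the contrast is limited by 4 and 6 arrays, and levels near background or the scale's top give only bounds. With the deposited values 70 features were higher and 36 lower on the retaining arrays, with 59 nodule-high, 30 nodule-low, 1 hormone and 15 other features; the classes held 375, 338, 28 and 21 features (nodule-high, nodule-low, hormone-up, hormone-down), and mean positions were 33.6% (nodule-low, low arrays), 117% (hormone-up, low) and 99.9% and 107% (hormone-down, retaining and low). Without quantile normalisation 14 were lower, 10 of them nodule-low, and 7 hormone features were apart; positions were 10.6% (nodule-high, low), 41.3% (nodule-low, low), 160% and 148% (hormone-up, retaining and low) and 62.1% (hormone-down, retaining). With classes refitted, the hormone-down median reversed to 0.16 log2. T3 4 d nodules then had 1292 features higher and 4634 lower than untreated nodules and 1123 lower than control, and Cdc20 against untreated nodules (-0.061) and Alb against control (-0.34) reversed; the cause was not tested. With features detected on all arrays, which are fewer, 77 were higher and 34 lower (66 nodule-high, 28 nodule-low, 1 hormone, 15 other), positions were 18.5% (nodule-high, low), 26.1% (nodule-low, low) and 100.4% (hormone-down, retaining), 1965 features were lower than in untreated nodules, and slopes in KRT-19-negative nodules gave 15 positive calls, 8 of them among the features higher on the retaining arrays, and 1 negative. Arrays 1 to 5 gave 340 higher and 187 lower (248 nodule-high, 116 nodule-low, 14 hormone, 134 other), and arrays 6 to 10 gave 29 lower, with 90 nodule-high and 19 nodule-low. A size of 0.5 log2 gave 502 and 269 (296, 144, 22 and 301), and classes cut at 2 log2 held 219, 127, 11 and 2 features. Slopes in T3 2 d nodules without the 2 arrays farthest from the median of Gstp1 gave 8 positive and 23 negative calls, 6 and 6 among the features apart; with detected probes as a covariate 9 of the lower features were called negative, and with title numbers 1 to 5 against 6 to 10 as a block, added after seeing the data, 24. In KRT-19-negative nodules the deposited values gave 1 negative call, detected probes as a covariate 15 positive calls, and leaving out array 3 (added after seeing the data) or the 2 farthest arrays 0 in each direction and 0 among the higher features.

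Leaving out 1 array at a time gave 145 to 236 features higher and 54 to 101 lower, 120 to 192 nodule-high, 45 to 75 nodule-low, 3 to 8 hormone (8 without array 8, against 4) and 29 to 60 other (60 without array 9, against 37). Mean positions on the retaining and low arrays ran over 50.002% to 57.6% and 14.8% to 16.2% for nodule-high, 52.2% to 60.5% and 28.8% to 29.3% for nodule-low, 101.9% to 108.6% and 108.0% to 110.1% for hormone-up, and 85.5% to 89.8% and 78.7% to 87.2% for hormone-down. Whole-group counts were 3017 to 3116 and 2960 to 3069 against untreated nodules, and 2400 to 2510 and 2243 to 2339 against control. With title numbers as a replicate block, 3242 features were higher and 3197 lower than in untreated nodules, and 2059 and 1850 against control; same-numbered arrays correlated at -0.245 to 0.273 and -0.126 to 0.0915, 1 of 10 and 1 of 8 best with their own number. No paired analysis was possible of the 4 against the 6, because both come from 1 group.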
